A study of Schizosaccharomyces pombe with 8 samples.

Results

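The tRNA genes of the fission yeast Schizosaccharomyces pombe that lie outside the centromeres were examined as elements of a small RNA data set. They are the elements that the deposited table places in the class tRNA, and they number 143 of 17962 elements. A separate class of the table holds 27 centromeric tRNA elements, which were used for comparison only. The 143 elements cover 20 amino acids by their names, with 50 on chromosome 1, 58 on chromosome 2 and 35 on chromosome 3, and are 71 to 102 nt long with a median of 73 nt.

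Small RNA of 18 to 28 nt was sequenced from strains grown in rich YES medium at 30 °C to an OD600 of 0.5. The 7 mutants carried, by their labels, a deletion of Paf1 or the alleles Paf1-Q264Stop (written Paf-1Q264Stop in its label) or Paf1-G104R, a deletion of Leo1 or the allele Leo1-W157Stop, or the alleles Cdc73-G313R or Rot1-Q472Stop, and the strain they were set against was labelled wild type. All 8 strains, wild type included, carry the label ade6-hp+, which the labels do not explain, and each is 1 strain with 1 library. No difference below therefore has a replicate check, no p-value is given, and the 7 comparisons share the same wild-type library.

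Transfer RNAs carry amino acids to the ribosome. Their genes are short, are transcribed by RNA polymerase III from promoter boxes inside the gene (the A box and the B box), and often occur in several identical copies. In fission yeast many lie beside or within the centromeres, where tRNA genes are known to act as borders of heterochromatin. Paf1, Leo1 and Cdc73 belong to the Paf1 complex, a partner of RNA polymerase II during elongation, and fragments of mature tRNA are common in small RNA libraries.

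The table gives levels as log2(n + 8), where n behaves as reads per element length scaled to a common total, so 3 is the lowest possible level. Read numbers were recovered from these levels and can be fractions where a read has several places. Total recovered reads were 1192698 in Paf1 deletion, 917880 in Cdc73-G313R, 1386956 in Leo1-W157Stop, 3156344 in Paf1-Q264Stop, 2351446 in Leo1 deletion, 3139689 in Paf1-G104R, 1868621 in Rot1-Q472Stop and 6422566 in wild type. Elements of the rRNA class took 28.7% of the linear total in Paf1 deletion, 60.0% in Cdc73-G313R, between 8.54% and 26.1% in the other mutants and 4.28% in wild type. The genes named by the labels did not all match. Where the wild-type level predicts 29.0 reads over leo1, the library labelled Leo1 deletion held 2, whereas over paf1 the library labelled Paf1 deletion held 0 where 1.47 were predicted, too few to check it. In 2 libraries the gene of the label was raised, with 182 reads over paf1 in Paf1-Q264Stop, against 7 in wild type, and 519 over leo1 in Leo1-W157Stop, against 62 in wild type. In 3 others a different gene from the one in the label was raised. Over prf1, 823 reads were found in the library labelled Paf1-G104R, against 1 in wild type, and that labelled Rot1-Q472Stop held 149 over cdc73, against 8 in wild type. The library labelled Cdc73-G313R held 26 reads over paf1, against 7 in wild type, so directions given for these 3 libraries belong to the library and not surely to the named allele.

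Reads appear to have been counted on the strand opposite the RNA. Elements of other classes that lie opposite a tRNA gene by at least 40 nt, 7 in number, had a median of 1250 to 2730.4 reads in the mutants, lowest in Rot1-Q472Stop, and 7778 reads in wild type. The 143 tRNA elements themselves had medians of 0 to 3.37 reads in the mutants and 5.63 reads in wild type. The 7 elements are longer than tRNA genes and lie at 4 places, since peg1, dal81 and ppk3 each enter as a UTR and as a transcript. Their levels, which are scaled by length, were 7.45 to 12.85 in wild type, beside a median of 4.50 for tRNA elements. How many of their reads lie opposite the tRNA gene itself cannot be seen. Elements of other classes on the same strand as a tRNA gene, 6 in number, had medians of 4.0 to 26.5 reads in the mutants and 50.8 in wild type. A level at a tRNA element is therefore read here as mostly reads antisense to the gene, not as the abundance of the tRNA.

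All 143 elements have the coordinates of a tRNA gene in the RefSeq assembly ASM294v3, and its 3 chromosome lengths are the last element ends of the table. The name is the same for 142 of them, and SPBTRNAASP.03 is SPBTRNAARG.06, a tRNA-Arg gene, in the reference. The products of SPCTRNAASP.05 and SPCTRNAASP.08 are tRNA-Asn there, although their letters equal those of other Asp genes. The 143 elements hold 68 distinct sequences. A sequence of its own in the class is found for 39 elements and the others share theirs, in families of up to 7, and 43 have an identical copy in the centromeric class. An intron is annotated in 35 elements and none in 108.

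The following genes are shown because the results turn on them. The first pair has the same gene sequence at separate places on chromosome 3, written in capitals between 28 nt of flank on each side. SPCTRNAGLN.06 is at chr3:2074991-2075062 on the minus strand and SPCTRNAGLN.05 at chr3:1863131-1863202 on the plus strand, each 72 nt with 1 exon. All are given 5′ to 3′ on the gene's strand from the RefSeq assembly.
SPCTRNAGLN.06: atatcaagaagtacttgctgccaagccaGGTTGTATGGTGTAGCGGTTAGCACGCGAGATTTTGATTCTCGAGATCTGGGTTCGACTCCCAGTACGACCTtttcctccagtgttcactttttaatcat
SPCTRNAGLN.05: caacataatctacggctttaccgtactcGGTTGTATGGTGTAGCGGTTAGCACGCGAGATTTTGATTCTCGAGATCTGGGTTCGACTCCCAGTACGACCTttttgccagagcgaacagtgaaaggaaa

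The flanks are unlike each other, with 6 of 28 positions identical on the 5′ side and 7 of 28 on the 3′ side. A read of the gene body could come from either gene, while a read that reaches a flank position where they differ belongs to 1 of them. Both 3′ flanks begin with the letters ttt, so a read that ends there could still come from either.

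The next set holds histidine, aspartate and asparagine genes described below in Paf1 deletion and 3 related serine genes, and here capitals mark the letters GTTCGANTC, the core of the B box bound by transcription factor TFIIIC. SPCTRNAHIS.03 is at chr3:71400-71471 (plus strand), SPCTRNAASP.05 at chr3:1068029-1068099 (plus), SPBTRNAASN.04 at chr2:4210053-4210126 (minus), SPCTRNAASN.05 at chr3:947262-947335 (plus), SPATRNASER.01 at chr1:1096369-1096466 (plus), SPATRNASER.03 at chr1:4265149-4265245 (plus) and SPCTRNASER.11 at chr3:1689713-1689809 (plus).
SPCTRNAHIS.03: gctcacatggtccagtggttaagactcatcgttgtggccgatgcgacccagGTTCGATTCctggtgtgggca
SPCTRNAASP.05: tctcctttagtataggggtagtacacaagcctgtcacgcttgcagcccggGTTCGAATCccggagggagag
SPBTRNAASN.04: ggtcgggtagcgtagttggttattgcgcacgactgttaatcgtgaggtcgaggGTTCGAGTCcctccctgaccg
SPCTRNAASN.05: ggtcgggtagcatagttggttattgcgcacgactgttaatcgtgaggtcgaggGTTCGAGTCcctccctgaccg
SPATRNASER.01: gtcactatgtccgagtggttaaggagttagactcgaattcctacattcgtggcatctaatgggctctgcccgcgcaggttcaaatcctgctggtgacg
SPATRNASER.03: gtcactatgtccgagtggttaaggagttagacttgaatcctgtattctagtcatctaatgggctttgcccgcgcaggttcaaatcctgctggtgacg
SPCTRNASER.11: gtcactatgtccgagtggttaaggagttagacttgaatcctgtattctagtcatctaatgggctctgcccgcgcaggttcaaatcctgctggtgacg

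The letters GTTCGANTC were found in 90 of the 143 tRNA elements (62.9%), and in 0 of 1109 elements of 71 to 102 nt from classes other than the 2 tRNA classes. Centromeric tRNA elements can hold them too, since SPCTRNAASP.06 and SPCTRNAASP.07 of that class have the sequence of SPCTRNAASP.05. Both strands of the 143 elements were searched, and 0 held the letters on the other strand. The 3 serine genes printed do not hold these letters. SPATRNASER.03 and SPCTRNASER.11 differ at 1 of 97 positions and the asparagine pair at 1 of 74.

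tRNA elements took a small share of each library. They held 899 reads in Paf1 deletion, 27 in Cdc73-G313R, 418 in Leo1-W157Stop, 705 in Paf1-Q264Stop, 601 in Leo1 deletion, 677 in Paf1-G104R, 428 in Rot1-Q472Stop and 1704 in wild type. Scaled to the recovered reads of each library, as RPM, this was 754 in Paf1 deletion (95% Clopper-Pearson interval 705 to 805), 29.4 in Cdc73-G313R (19.4–42.8) and 265 in wild type (253–278). On this scale Leo1-W157Stop had 301 (273–332), Leo1 deletion 256 (236–277), Rot1-Q472Stop 229 (208–252), Paf1-Q264Stop 223 (207–240) and Paf1-G104R 216 (200–232). Paf1 deletion thus stood highest and Cdc73-G313R lowest of the 8 libraries, and the intervals of Leo1-W157Stop and Leo1 deletion overlapped that of wild type. Intervals here and below cover counting error only, since reads amplified by PCR are not independent molecules.

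Single elements were thinly covered. Elements with 0 reads numbered 6 in Paf1 deletion and 86 in Cdc73-G313R, 4 to 12 in the other mutants and 0 in wild type. Elements with fewer than 3 reads numbered 68 in Paf1 deletion and 143 in Cdc73-G313R, 69 to 105 in the other mutants and 35 in wild type. The median level of the 143 elements was 5.59 in Paf1 deletion, 3 in Cdc73-G313R, 4.95 in Leo1-W157Stop, 4.21 in Paf1-Q264Stop, 4.50 in Leo1 deletion, 4.46 in Paf1-G104R, 4.43 in Rot1-Q472Stop and 4.50 in wild type. Because the libraries differ in depth, 1 read at a 72 nt element gives a level of 4.40 in Paf1 deletion, 4.18 in Cdc73-G313R and 3.42 in wild type.

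**Figure D1:**
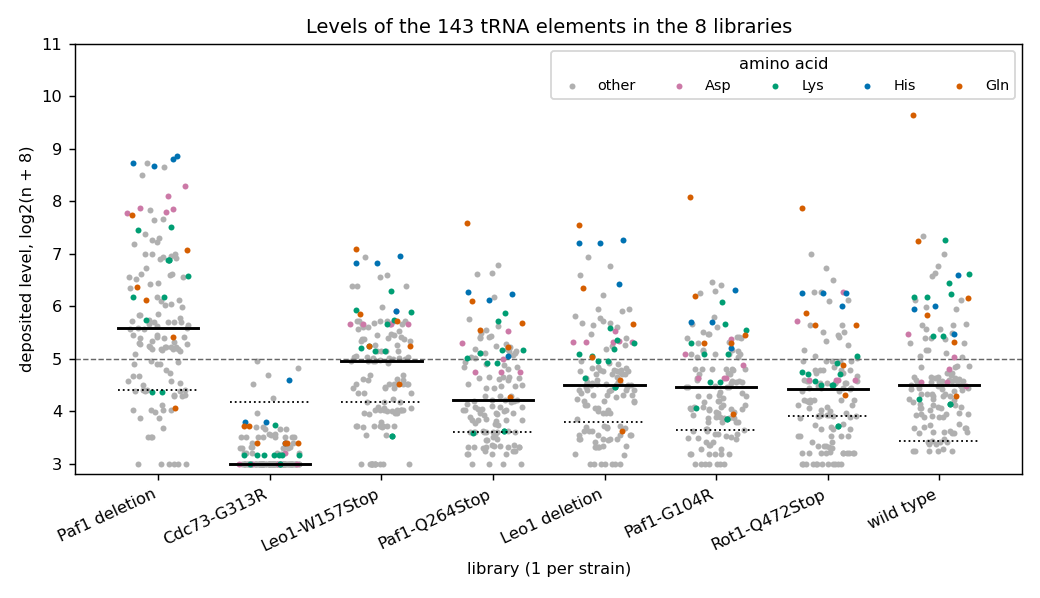
Deposited level, log2(n + 8), of each of the 143 tRNA elements (points) in the 7 mutant libraries and in wild type, with 4 amino acids in colour. The black line is the median of each library, the dotted line the level of 1 read at a 72 nt element and the dashed line the level of 5 used as a filter. Paf1 deletion has its median at 5.59 and Cdc73-G313R at the floor of 3, against 4.50 in wild type, where SPCTRNAGLN.06 stands alone at 9.65.

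The element with the highest mean level was SPCTRNAGLN.06, a glutamine tRNA gene. It held 15.7 reads in Paf1 deletion, 0.5 in Cdc73-G313R, 13 in Leo1-W157Stop, 43.4 in Paf1-Q264Stop, 30.5 in Leo1 deletion, 58.7 in Paf1-G104R, 32.2 in Rot1-Q472Stop and 289.6 in wild type. Its difference to wild type was the lowest of the tRNA elements past the filter in 6 of the 7 comparisons and the third lowest in Rot1-Q472Stop, and it lay between -5.94 (Cdc73-G313R) and -1.57 (Paf1-G104R) on the log2 level scale. An element passed the filter when its level was at least 5 in the higher of the libraries compared. The level ratio to wild type was 0.258 in Paf1 deletion (0.149–0.435) and 0.331 in Paf1-G104R (0.247–0.441), the highest of the 7, and between 0.00639 and 0.286 in the others.

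Its twin SPCTRNAGLN.05 has the same letters but far fewer reads. It held 5.7 reads in Paf1 deletion, 0.5 in Cdc73-G313R, 5 in Leo1-W157Stop, 14.4 in Paf1-Q264Stop, 12.5 in Leo1 deletion, 14.7 in Paf1-G104R, 7.2 in Rot1-Q472Stop and 52.6 in wild type. The difference between the twins came out as a whole number in every library. It was 10 reads in Paf1 deletion, 0 in Cdc73-G313R, 8 in Leo1-W157Stop, 29 in Paf1-Q264Stop, 18 in Leo1 deletion, 44 in Paf1-G104R, 25 in Rot1-Q472Stop and 237 in wild type. Over all families of identical copies, 528 of 816 such differences to the lowest copy were whole within 0.05 (64.7%). Which positions these reads cover cannot be seen in a table of elements.

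The reads that SPCTRNAGLN.06 has above its twin were lower in each mutant than in wild type. Their level ratio was 0.202 in Paf1 deletion (0.0954–0.377), 0.123 in Leo1-W157Stop (0.0524–0.246), 0.188 in Paf1-Q264Stop (0.123–0.278), 0.163 in Leo1 deletion (0.0947–0.263), 0.303 in Paf1-G104R (0.215–0.420) and 0.272 in Rot1-Q472Stop (0.173–0.412). In Cdc73-G313R the count of 0 allows a ratio of up to 0.0580. For SPCTRNAGLN.05 the ratio was lowest in Cdc73-G313R at 0.0352 and highest in Paf1 deletion at 0.515, and in Paf1 deletion the interval (0.190–1.26) included 1. Since all 7 mutants are set against 1 wild-type library, a value particular to that library would appear in all of them.

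Around SPCTRNAGLN.06 the table shows few reads. The transcript SPCPB1C11.02 ends 101 nt away and held 18 reads in Paf1 deletion, 1 to 8 in the other mutants and 7 in wild type over its whole length. This neighbour held more reads in Paf1 deletion than in wild type, and too few in the other mutants for a comparison.

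**Figure D2:**
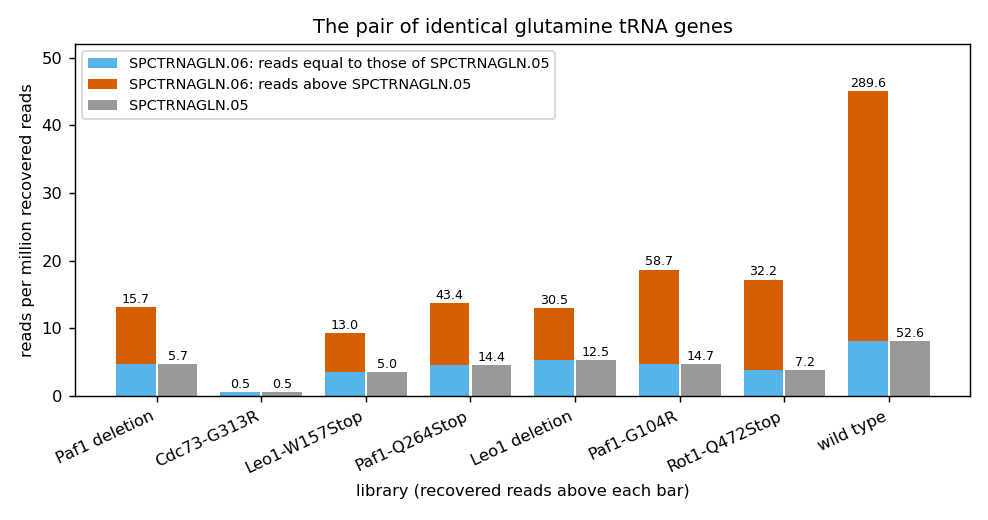
RPM, relative to all recovered reads, of the 2 identical glutamine genes in the 7 mutant libraries and in wild type, with recovered reads above each bar. The orange part is what SPCTRNAGLN.06 holds above SPCTRNAGLN.05, from 0 reads in Cdc73-G313R to 44 in Paf1-G104R, against 237 in wild type.

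The other 4 glutamine elements lie on chromosome 2 and had fewer reads. SPBTRNAGLN.04 had levels of 7.07 in Paf1 deletion, 3.40 in Cdc73-G313R, 5.24 in Leo1-W157Stop, 5.68 in Paf1-Q264Stop, 5.66 in Leo1 deletion, 5.45 in Paf1-G104R, 5.65 in Rot1-Q472Stop and 6.15 in wild type. It was above wild type in Paf1 deletion alone among the 7. Summed, the 6 glutamine elements held 39 reads in Paf1 deletion, 2 in Cdc73-G313R, 30 in Leo1-W157Stop, 87 in Paf1-Q264Stop, 58 in Leo1 deletion, 97 in Paf1-G104R, 56 in Rot1-Q472Stop and 399 in wild type, where they made up 23.4% of all tRNA reads. Their ratio was below 1 with its interval in all 7 mutants, lowest in Cdc73-G313R at 0.0185 (0.00224–0.0674) and highest in Paf1 deletion at 0.467 (0.327–0.650). Most of this sum is SPCTRNAGLN.06. Without it the other 5 held 23.3 reads in Paf1 deletion and 109.4 in wild type, a ratio of 1.02 (0.613–1.59). In the other 6 mutants their ratio was between 0.0507 in Cdc73-G313R and 0.613 in Paf1-Q264Stop. Its interval stayed below 1 in these 6 on the deposited scaling. No interval was taken in RPM, where the upper limits outside Cdc73-G313R may not stay below 1.

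The differences of the whole class were then read with a fixed rule of size, because no test is possible. An element past the filter was counted as higher or lower at a log2 difference of at least 1. In Paf1 deletion 69 of the 105 tRNA elements past this filter were higher and 7 lower, while 22.3% of all 2937 elements past the filter were higher and 19.8% lower. The filter is reached with 1.83 reads at a 72 nt element in Paf1 deletion but only with 8.76 reads in wild type, and 99 elements reached it in Paf1 deletion, against 44 in wild type. The count thus leans on elements that passed through the mutant alone, so the median over all 143 elements is the better guide: it was 1.01, and 1.21 over the members past the filter, against 0.01 for all elements past the filter. Other classes of structural RNA were also raised in Paf1 deletion. Their median differences were 1.03 for rRNA elements, 1.77 for the 7 small nuclear RNA elements and 0.62 for small nucleolar RNA elements. A raised median in this library is therefore not particular to tRNA elements. Summed over all members, the tRNA level ratio was 2.52 (2.32–2.73), and 2.99 (2.74–3.25) without SPCTRNAGLN.06.

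Histidine genes led by level in Paf1 deletion. SPCTRNAHIS.03 had levels of 8.86 in Paf1 deletion, 4.59 in Cdc73-G313R, 6.95 in Leo1-W157Stop, 6.23 in Paf1-Q264Stop, 7.27 in Leo1 deletion, 6.30 in Paf1-G104R, 6.25 in Rot1-Q472Stop and 6.6 in wild type. The 4 histidine elements have the same sequence and share reads, so they count as 1 place in the evidence. Together they held 131 reads in Paf1 deletion and 86 in wild type, a level ratio of 7.28 (5.5–9.67). Histidine was also above wild type in Leo1 deletion at 2.14 (1.57–2.92) and in Leo1-W157Stop at 1.61 (1.07–2.38), with intervals that exclude 1, and its interval included 1 in Paf1-G104R, Rot1-Q472Stop and Paf1-Q264Stop.

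Aspartate had the highest ratio of the 20 groups in Paf1 deletion. Its 6 elements held 109.8 reads in Paf1 deletion, 0.1 in Cdc73-G313R, 26.5 in Leo1-W157Stop, 35.3 in Paf1-Q264Stop, 33.5 in Leo1 deletion, 29.4 in Paf1-G104R, 25.3 in Rot1-Q472Stop and 45.7 in wild type, which gave 11.5 (8.03–16.5) in Paf1 deletion. With the products of the reference, which leave 3 Asp elements and 11 Arg elements, the ratio was 11 (6.66–18.5) for Asp. For Arg it was 4.37 (2.76–6.82) where the names give 3.12 (1.77–5.47). This regrouping was chosen after seeing the data, and it drops SPCTRNAASP.05 and SPCTRNAASP.08 although their letters equal those of other Asp genes. SPATRNAASP.01 had the largest difference of any tRNA element past the filter, 3.82, with levels of 8.29 in Paf1 deletion and 4.47 in wild type.

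Single genes within a family did not move alike. SPBTRNAASN.04, an asparagine gene, had levels of 8.73 in Paf1 deletion, 3.50 in Cdc73-G313R, 4.69 in Leo1-W157Stop, 5.49 in Paf1-Q264Stop, 5.64 in Leo1 deletion, 4.18 in Paf1-G104R, 4.72 in Rot1-Q472Stop and 5.17 in wild type. SPCTRNAASN.05, which differs from it at 1 of 74 positions, had 7.38 in Paf1 deletion, 4.95 in Cdc73-G313R, 5.6 in Leo1-W157Stop, 5.40 in Paf1-Q264Stop, 4.54 in Leo1 deletion, 5.51 in Paf1-G104R, 5.05 in Rot1-Q472Stop and 5.17 in wild type. The pair was level in wild type, while SPBTRNAASN.04 was the higher in Paf1 deletion, with 32.67 reads beside 12.5 for SPCTRNAASN.05. The valine gene SPCTRNAVAL.11 held 30.5 reads in Paf1 deletion and 12.5 in wild type, and its identical copy SPATRNAVAL.02 held 6.5 in Paf1 deletion and 5.5 in wild type.

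By summed reads, 17 of the 20 amino acid groups had a ratio above 1 with its interval in Paf1 deletion, and 1, glutamine, had one below, which included 1 without SPCTRNAGLN.06. Asparagine was at 8.05 (5.30–12.4), valine at 5.46 (3.75–8.05), glutamate at 5.23 (3.11–8.92) and tyrosine at 4.84 (2.39–9.53). Lysine, which held 81.3 reads in Paf1 deletion and 257.3 in wild type, was at 1.51 (1.16–1.94), and threonine and cysteine had intervals that included 1. Of the 143 elements taken singly, 41 had an interval above 1 and 1 below, where 19.5% of all elements with reads in either library had one above and 8.8% below.

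**Figure D3:**
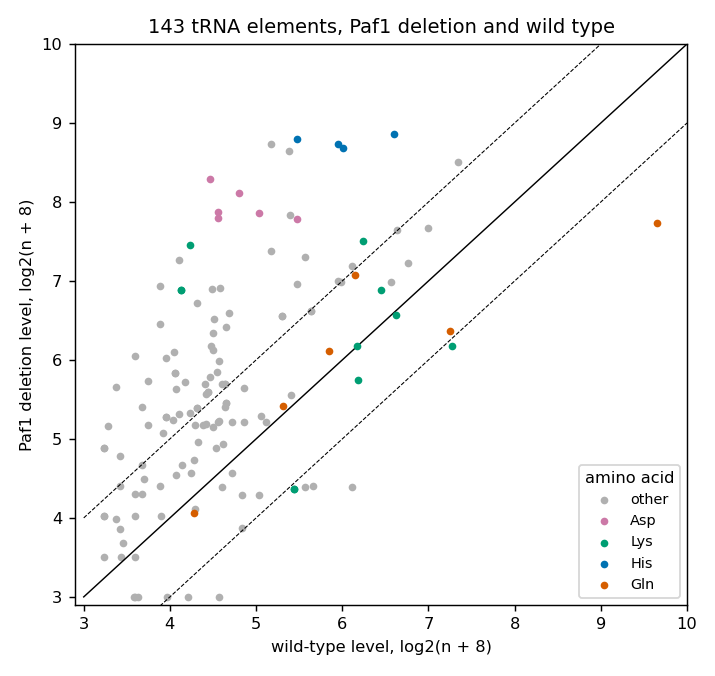
Level of each tRNA element in the library labelled Paf1 deletion (vertical axis) against wild type (horizontal axis), both as deposited log2(n + 8). The solid line is equality and the dashed lines a difference of 1; aspartate and histidine elements lie above the upper dashed line, and SPCTRNAGLN.06 lies below the lower one at 7.73 in Paf1 deletion and 9.65 in wild type.

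Of the serine elements, 2 stood among the 4 highest by mean level. SPATRNASER.01 had levels of 8.51 in Paf1 deletion, 4.52 in Cdc73-G313R, 6.93 in Leo1-W157Stop, 6.62 in Paf1-Q264Stop, 6.94 in Leo1 deletion, 6.25 in Paf1-G104R, 7.0 in Rot1-Q472Stop and 7.34 in wild type. SPATRNASER.03 and SPCTRNASER.11 had 7.67 and 7.23 in Paf1 deletion, 3.56 and 3.56 in Cdc73-G313R and 7.0 and 6.76 in wild type. The 3 were above wild type in Paf1 deletion alone. SPATRNASER.04, from another serine family of 7 copies, was the 1 tRNA element above wild type in all 7 mutants, with differences from 0.05 in Cdc73-G313R to 1.16 in Paf1-G104R, on 2 to 12.1 reads in the mutants and 7.0 in wild type. At the other end, 13 elements were below wild type in all 7, which includes both chromosome 3 glutamine genes. Some of these are identical copies that share reads, such as SPBTRNALYS.07 and SPBTRNALYS.08. The share of all elements above or below wild type in all 7 was not counted, so neither count is read as a trait of the class.

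Lysine stood low in most mutants other than Paf1 deletion. SPCTRNALYS.11, which has the same values as a centromeric lysine element, had levels of 6.18 in Paf1 deletion, 3.74 in Cdc73-G313R, 5.67 in Leo1-W157Stop, 5.72 in Paf1-Q264Stop, 5.58 in Leo1 deletion, 6.08 in Paf1-G104R, 4.50 in Rot1-Q472Stop and 7.27 in wild type. All 7 mutants lay below wild type at this element. Summed, lysine had a ratio of 0.442 (0.322–0.595) in Leo1 deletion, 0.449 (0.342–0.589) in Paf1-G104R, 0.622 (0.441–0.859) in Leo1-W157Stop, 0.423 (0.322–0.555) in Paf1-Q264Stop and 0.277 (0.183–0.416) in Rot1-Q472Stop. With glutamine it was the group whose interval lay below 1 in each of these 5, on the deposited scaling. In RPM lysine was at 31.7 in Leo1-W157Stop and 40.1 in wild type, so the upper limit of 0.859 there may not stay below 1 on that scale.

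In the library labelled Cdc73-G313R nearly all tRNA elements past the filter were low, and so were most other elements past it. Of 44 elements past the filter 0 were higher and 43 lower, where 3.92% of all 2169 elements past the filter were higher and 74.9% lower. The highest level of a tRNA element in this library was 4.95, so all 44 passed the filter through wild type alone. That 0 were higher was thus fixed by the filter. After recentring on the median of all elements past the filter, -2.00, the split was 1 higher and 12 lower. The median over all 143 elements was -1.42, or 0.58 when recentred, and it was -2.48 over those past the filter. The class held 27 reads where the wild-type level predicts 461, a ratio of 0.0585 (0.0385–0.0856). Phenylalanine, threonine, methionine, glutamate, tyrosine, glycine and cysteine had 0 reads, and asparagine was highest at 0.389 (0.101–1.08). This library had the lowest depth, 917880 reads, and the highest rRNA share, 60.0%, and the part of these in the low levels was not tested; in RPM the class was also lower, at 29.4, against 265 in wild type.

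The remaining mutants had smaller differences. The common scaling shifts all elements past the filter, whose median was -0.48 in Leo1-W157Stop, -0.31 in Paf1-Q264Stop, -0.70 in Leo1 deletion, -0.11 in Paf1-G104R and -0.39 in Rot1-Q472Stop, and each split below is given with its value after recentring on that median. In Leo1 deletion 4 of 52 elements were higher (5.08% of all elements past the filter) and 10 lower (29.6%), with a median of -0.14 over all members and a ratio of summed levels of 0.755 (0.687–0.829). Recentring turned this split to 18 higher and 1 lower and the median to 0.56. In RPM the class was at 256, against 265 in wild type, with overlapping intervals, so no direction is given for the class in Leo1 deletion. In Paf1-G104R 1 of 53 was higher (4.58%) and 11 lower (9.79%), or 2 higher and 5 lower when recentred, with a median of -0.24, recentred -0.13, and a ratio of 0.649 (0.593–0.710). In Rot1-Q472Stop 2 of 53 were higher (8.37%) and 18 lower (26.3%), or 8 higher and 12 lower when recentred, with a median of -0.34, recentred 0.05, and a ratio of 0.648 (0.581–0.721). In Paf1-Q264Stop 0 of 51 were higher (3.8%) and 10 lower (12.6%), or 2 higher and 3 lower when recentred, with a median of -0.31, recentred 0.00032, and a ratio of 0.637 (0.582–0.695). No direction is given for the class median in Rot1-Q472Stop or Paf1-Q264Stop either. Without SPCTRNAGLN.06 the last 3 ratios became 0.714, 0.722 and 0.720. The recentred medians set all members against elements past the filter, which are unlike sets. Past the filter, the members' median was -0.45 in Leo1 deletion, -0.50 in Rot1-Q472Stop and -0.42 in Paf1-Q264Stop, beside the -0.70, -0.39 and -0.31 above. Without the filter, all elements had -0.07, 0 and -0.01 in the same order, beside -0.14, -0.34 and -0.31 for all members.

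By count alone, Leo1-W157Stop had more tRNA elements higher than lower. Here 18 of 76 elements were higher (8.73% of all elements past the filter) and 9 lower (32.9%), or 32 higher and 6 lower when recentred. The filter is reached with 2.41 reads at a 72 nt element in Leo1-W157Stop but only with 8.76 in wild type. It was reached by 68 tRNA elements in Leo1-W157Stop, against 44 in wild type. This count too leans on elements that passed through the mutant alone, so no direction is taken from it. The median over all members was 0.20, recentred 0.67. With 1 value per distinct sequence the median was -0.23, so its sign depends on how copies are counted. The ratio of summed levels was 0.892 (0.799–0.993), and 1.04 (0.930–1.16) without SPCTRNAGLN.06. In RPM the class was instead above wild type, at 301 (273–332) against 265 (253–278). These intervals overlapped, which does not settle whether the ratio differs from 1, and no interval of the ratio was taken on this scale. The side of 1 on which the class lies in Leo1-W157Stop thus depends on the scaling. Alanine was highest at 2.58 (1.49–4.46), followed by methionine at 2.16 (1.16–3.93), aspartate at 2.11 (1.22–3.39), glutamate at 2.01, with an interval (0.987–3.67) that included 1, and tryptophan at 1.82 (1.05–3.06). Isoleucine was lowest at 0.265 (0.0895–0.568), on 6.3 reads in Leo1-W157Stop and 86.8 in wild type.

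Intervals of most single elements included 1 in all 7 mutants, Paf1 deletion among them. In the other 6, those wholly above and wholly below 1 numbered 0 and 10 of 143 in Paf1-Q264Stop (4.2% and 15% of all elements), 1 and 9 in Paf1-G104R (8.36% and 10.2%), 2 and 5 in Leo1 deletion (3.3% and 22.7%), 0 and 4 in Leo1-W157Stop (6.81% and 14.6%), 0 and 24 in Cdc73-G313R (2.4% and 34.8%) and 2 and 10 in Rot1-Q472Stop (8.39% and 14.9%).

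**Figure D4:**
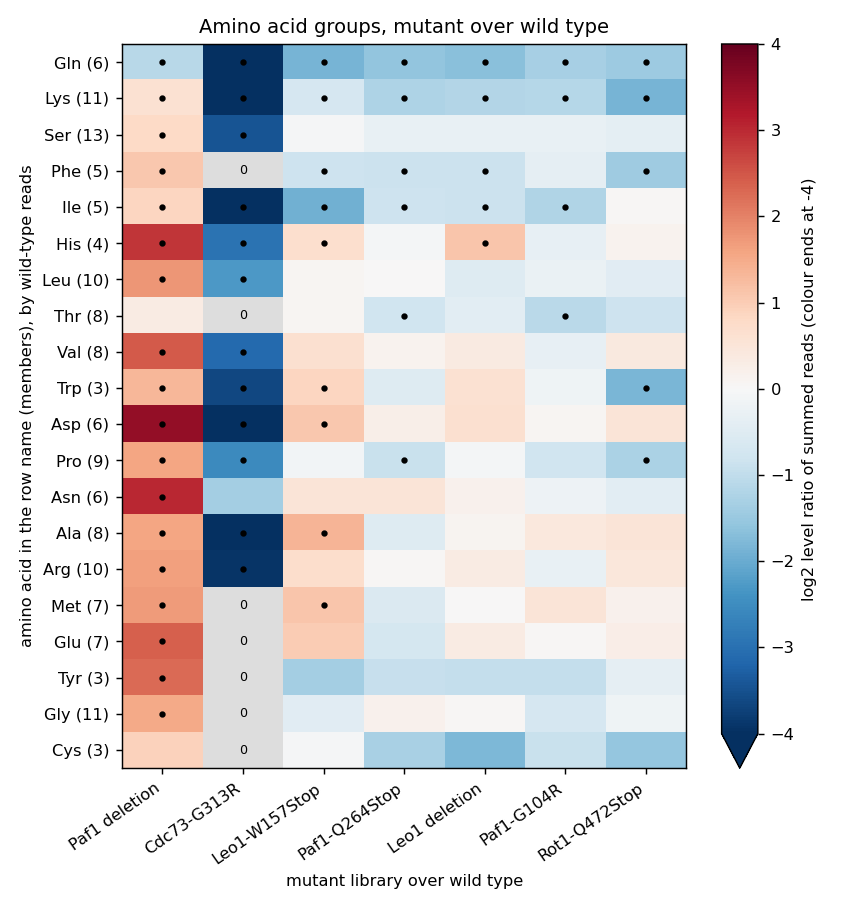
Log2 level ratio, mutant over wild type, of the reads summed over the elements of each amino acid (rows, with the number of elements) in the 7 mutant libraries (columns). A dot marks a 95% interval that excludes a ratio of 1 and grey a group with 0 reads in the mutant. In Paf1 deletion 17 of 20 groups have a dot and are above 1, and glutamine, with SPCTRNAGLN.06 in its sum, is below 1 in all 7 columns; without that element it is at 1.02 in Paf1 deletion.

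Opposite 4 tRNA genes the table holds other elements, and these carry far more reads. The places are the 5′ UTR of peg1 opposite SPATRNAALA.03, the 3′ UTR of dal81 opposite SPATRNATYR.01, the 5′ UTR of ppk3 opposite SPATRNAVAL.04 and the non-coding RNA SPNCRNA.1669 opposite SPBTRNAGLU.08. They overlap the tRNA gene by 63, 80, 83 and 72 nt in this order, and each extends beyond it. How many of their reads lie opposite the gene itself cannot be seen. Together these places held 3.27% of recovered reads in Paf1 deletion, 6.02% in Cdc73-G313R, 2.08% in Leo1-W157Stop, 1.57% in Paf1-Q264Stop, 1.69% in Leo1 deletion, 1.26% in Paf1-G104R, 1.83% in Rot1-Q472Stop and 1.75% in wild type. The 4 tRNA elements on the other strand held 18.3 reads in Paf1 deletion, 0.1 in Cdc73-G313R, 6.8 in Leo1-W157Stop, 7.7 in Paf1-Q264Stop, 9.7 in Leo1 deletion, 12.2 in Paf1-G104R, 8.9 in Rot1-Q472Stop and 17.3 in wild type. Cdc73-G313R was thus the highest library at these whole places and the lowest on the tRNA elements, while Paf1 deletion was above wild type on both.

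Of these places the tyrosine one had the widest range of level ratios. The dal81 3′ UTR (chr1:1746468-1746917, minus strand) held 5849 reads in Paf1 deletion, 19722 in Cdc73-G313R, 5052 in Leo1-W157Stop, 9608 in Paf1-Q264Stop, 7491 in Leo1 deletion, 6762 in Paf1-G104R, 7407 in Rot1-Q472Stop and 15691 in wild type. Its level ratio was 4.65 (4.55–4.75) in Cdc73-G313R, 1.78 (1.73–1.84) in Paf1 deletion and between 0.704 and 1.22 in the others. SPNCRNA.1669 (chr2:4107562-4109819, minus strand) held the most reads, 29086 in Paf1 deletion and 31834 in Cdc73-G313R, 20913 to 35662 in the other mutants and 84717 in wild type, with ratios of 1.64 (1.62–1.66) in Paf1 deletion and 1.39 (1.37–1.41) in Cdc73-G313R. The ppk3 5′ UTR had its lowest ratio, 0.301 (0.281–0.322), in Rot1-Q472Stop. Only these 4 genes have an element opposite them, so nothing can be read for the other 139 in this way, and reads of identical copies elsewhere may be included.

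**Figure D5:**
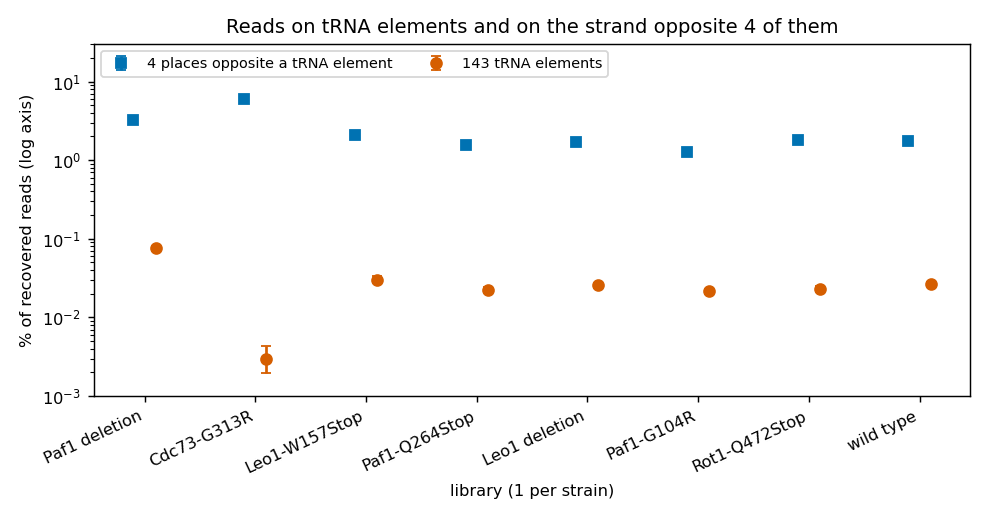
Share of recovered reads, in % on a log axis, at the 4 places that lie in part opposite a tRNA gene (squares) and at the 143 tRNA elements (circles) in the 7 mutant libraries and in wild type. Bars are 95% Clopper-Pearson intervals. Cdc73-G313R has the highest square, 6.02%, and the lowest circle, 0.00294%, beside 1.75% and 0.0265% in wild type.

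Position and gene structure were compared next. Of the 143 elements, 24 lie within 5000 nt of a centromeric element, 17 of them on chromosome 2. In Paf1 deletion their median difference was 1.06, against 0.97 for the other 119, and the 27 elements of the centromeric class had 1.51. The elements near centromeres also had the higher median in Leo1-W157Stop, at 0.50 beside 0.14 for the others, in Paf1-G104R, at 0.02 beside -0.25, and in Rot1-Q472Stop, at 0.01 beside -0.42. They had the lower median in Cdc73-G313R, at -1.44 beside -1.41, in Paf1-Q264Stop, at -0.43 beside -0.29, and in Leo1 deletion, at -0.25 beside -0.14. Elements with an intron had a median of 0.59 in Paf1 deletion and those without one 1.07. Their median was also the lower in the 6 other mutants, by the least in Paf1-G104R, at -0.24 beside -0.21, and by the most in Leo1-W157Stop, at -0.23 beside 0.29. Many of these elements share reads with identical copies, so the medians are descriptions only.

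Genes that make, cut and modify tRNA showed little at this depth. Of 40 listed genes, among them subunits of TFIIIC and RNA polymerase III, the splicing endonuclease and modification enzymes, 39 were found. Each comparison had 1 of them past the filter, except Paf1-G104R with 2. The first was sen34, a subunit of the tRNA splicing endonuclease, with levels of 4.48 in Paf1 deletion, 3.85 in Cdc73-G313R, 4.37 in Leo1-W157Stop, 4.55 in Paf1-Q264Stop, 4.34 in Leo1 deletion, 4.71 in Paf1-G104R, 4.28 in Rot1-Q472Stop and 5.07 in wild type. It was counted as lower in Cdc73-G313R at -1.21, where 74.9% of all elements past the filter were lower and their median was -2.00. In any mutant, 0 genes of the list were counted as higher, where 3.8% to 22.3% of all elements past the filter were. With so few listed genes past the filter, these counts say little about the list. The second in Paf1-G104R was tad3, a subunit of the tRNA adenosine deaminase, with levels of 5.11 in Paf1-G104R and 4.96 in wild type.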

How the data were processed

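The authors deposited 1 table of log2 values. Its lowest value was 3 and its linear total, after removal of 8, was 907489 in each of the 8 libraries, so the values are log2(n + 8). Of tools, the notes of the submitters list Bowtie 0.9.9.1 and CASAVA 1.8, with no role; the genome build and the counting rule were not given in the sources. Read numbers were recovered from the value of 1 read in each library, with Python 3.11.15, numpy 2.4.6, pandas 2.3.3 and scipy 1.17.1. Recovered reads were whole within 0.05 for 79.7% to 89.2% of elements with reads, but for 7.02% to 24.5% of the tRNA elements, whose copies share reads; fractions were rounded for intervals. For level ratios, 95% Clopper-Pearson intervals were taken given the summed reads of both libraries. The calculation was tested on simulated reads only for elements well above the floor. Most tRNA elements lie lower, where differences are understated; a first version of the test that included lower elements did not recover every change it was given, and the test as run does not cover them. With 1 library per strain the rule of size (filter of 5, difference of 1) replaced a test. Elements named were the 20 of highest mean level, those past the filter in all 7 comparisons, and up to 3 per direction in each mutant; 55 met this rule and the text gives those its results turn on. SPATRNAVAL.02 was among them, and the comparison of copies was chosen after seeing values. Members and lists were chosen with earlier results of these data known.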

Additional observations from a re-analysis of the deposited data

How the results depend on the processing

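The common total of recovered reads, the tRNA and glutamine sums without SPCTRNAGLN.06 and the regrouping of Asp and Arg were added after seeing the data. Of the alternatives for class counts, medians and shares, 77 stayed within the limits set, 42 moved and 1 reversed. Counts of changed elements were 76 in Paf1 deletion, 43 in Cdc73-G313R, 27 in Leo1-W157Stop, 10 in Paf1-Q264Stop, 14 in Leo1 deletion, 12 in Paf1-G104R and 20 in Rot1-Q472Stop. With a threshold of 2 they were 28 in Paf1 deletion, 1 in Leo1-W157Stop, 1 in Paf1-Q264Stop, 1 in Leo1 deletion, 0 in Paf1-G104R and 1 in Rot1-Q472Stop. With a filter of 6 they were 45 in Paf1 deletion, 18 in Cdc73-G313R, 8 in Leo1-W157Stop, 9 in Leo1 deletion and 13 in Rot1-Q472Stop, and with no filter 94 in Cdc73-G313R, since fewer or more elements enter. Recentring gave 13 in Cdc73-G313R, 5 in Paf1-Q264Stop and 7 in Paf1-G104R; quantile normalization gave 4 in Paf1-Q264Stop and 4 in Paf1-G104R; a common total of reads gave 6 in Paf1-Q264Stop and 4 in Paf1-G104R; a pseudocount of 1 gave 21 in Paf1-G104R.

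Recentring moved the class median to 0.67 in Leo1-W157Stop, 0.00032 in Paf1-Q264Stop, 0.56 in Leo1 deletion and 0.050 in Rot1-Q472Stop, and reversed it to 0.58 in Cdc73-G313R. The shift removed there, -2.00, is that of elements past the filter, whereas most of the 143 members lie near the floor and cannot fall that far, and 12 of the 13 elements counted after recentring were lower. Shifts removed from the medians of the other mutants are likewise those of elements past the filter, not of all elements. Quantile normalization gave medians of -0.96 in Cdc73-G313R, 0.43 in Leo1-W157Stop, -0.14 in Paf1-Q264Stop and 0.15 in Leo1 deletion. A total without rRNA gave 1.41 in Paf1 deletion and 0.45 in Leo1-W157Stop. A pseudocount of 1 gave 1.32 in Paf1 deletion, -3.29 in Cdc73-G313R, -0.48 in Paf1-Q264Stop, -0.33 in Paf1-G104R and -0.56 in Rot1-Q472Stop. One value per sequence gave -0.23 in Leo1-W157Stop and -0.28 in Leo1 deletion. A common total of reads gave 1.17 in Paf1 deletion, 0.43 in Leo1-W157Stop, -0.072 in Paf1-Q264Stop, 0.053 in Leo1 deletion and -0.012 in Paf1-G104R. The causes of these moves, other than those named, were not tested. By direction, Paf1 deletion stayed above wild type in every setting run, while the split of Leo1 deletion, 4 higher and 10 lower, became 18 and 1 on recentring, 17 and 2 on quantile normalization, 7 and 7 without rRNA and 13 and 4 with a common total. Rot1-Q472Stop, 2 and 18, became 8 and 12 on recentring and 10 and 14 with a common total; Leo1-W157Stop, 18 and 9, became 32 and 6 on recentring; Paf1-G104R, 1 and 11, became 2 and 2 with a common total, and Paf1-Q264Stop, 0 and 10, became 3 and 3. The median over members of the 7-mutant median was -0.21, and -0.26 to -0.06 with 1 mutant left out. Without SPCTRNAGLN.06 the summed ratio turned to the other side of 1 for glutamine in Paf1 deletion, at 1.02, and for all tRNA in Leo1-W157Stop, at 1.04, each with an interval that included 1. With the reference products, which drop SPCTRNAASP.05 and SPCTRNAASP.08 from Asp, the interval of Asp in Leo1-W157Stop, at 1.94, included 1. No paired analysis was possible because each strain has 1 library. Depth limits single elements most in Cdc73-G313R, where each has fewer than 3 reads.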
